A study of Mus musculus with 32 samples.

Results

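The comparison set sham-operated mouse spinal cord at 35 days against sham-operated cord at 3 days. Its members were chosen by treatment and time in the sample labels, and they were 6 of the 32 libraries of the series: 3 labelled sham at 35 days and 3 labelled sham at 3 days. A sham animal goes through surgery without a cord injury, so the comparison sets uninjured cords late after an operation against other uninjured cords early after it. All animals were C57BL/6J, and the age label was 8 to 12 weeks in both groups. The other libraries came from injured cord given a control, Gsx1 or Nkx6.1 at 3 to 35 days, in 8 further groups, and of these the injured control groups at 35 days (4 libraries) and 3 days (3 libraries) are used below as a comparison of time courses. RNA was total RNA from cord segments, and the labels used here state neither the sham procedure, nor the animals' sex, nor their age when tissue was taken. Time after surgery therefore cannot be told apart from any difference in age at collection. The labels do not tie the replicates to individual animals, and every p-value here rests on library-to-library spread, which may be technical.

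Spinal cord is supplied by capillaries whose endothelial cells form the blood-brain barrier with pericytes, and both cell types rest on a shared basement membrane of collagen IV, laminins, nidogens and perlecan. The cord is wrapped in meninges, whose fibroblasts make fibrillar collagens, and nerve roots myelinated by Schwann cells enter it. Surgical exposure is known to set off an early vascular, meningeal and inflammatory response around the cord.

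The 6 libraries held 12297016 to 15103777 counts each, and the groups were unbalanced in sex-linked RNA. Xist, expressed from the inactive X chromosome, was at 0.235, 0.763 and 520 CPM (counts scaled to the library total) at 35 days and at 503, 539 and 5.88 CPM at 3 days. Ddx3y, a Y-linked gene, was at 105, 111 and 0.574 CPM at 35 days and at 19.1, 1.03 and 79.7 CPM at 3 days, so 3-day replicate 1 carried both. Central myelin, neuronal and Hox genes, which mark cord tissue, were present in all 6 libraries: the 16 listed pan-neuronal genes summed to 17071 to 17430 CPM at 35 days and to 14913 to 15997 CPM at 3 days. In bulk tissue, fewer cells of a type and less RNA per cell cannot be told apart, and this holds for every group of genes below.

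Von Willebrand factor, Vwf, the clotting protein that endothelial cells store and release, was the single gene of 16314 called at an adjusted p below 0.05 (0.00613%) when all 32 libraries of 10 groups were fitted together. It was at 13.2, 14.0 and 20.0 CPM at 35 days, against 79.6, 90.9 and 87.8 CPM at 3 days. Every 35-day library was below every 3-day library, and the groups were far apart. The level was 5.47-fold lower at 35 days, with a log2 fold change of -2.45 ± 0.40 (SE) and an adjusted p of 0.0239 by edgeR's quasi-likelihood test. The gene lies on chromosome 6 at 125546774 to 125686679 (GRCm38). At an unadjusted p below 0.05, 1171 genes passed, 396 higher and 775 lower, and after Vwf the lowest adjusted p was 0.103. Vwf was called in 1 of the 6 fits that left out a sham library, the one without 3-day replicate 2. Its log2 fold change stayed between -2.34 and -2.69 in all alternatives, while its adjusted p reached 0.450 without 35-day replicate 2, and limma voom called 0 genes (831 at an unadjusted p below 0.05).

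The spread that this fit uses comes from all 10 groups, most of them injured cord, and was a biological coefficient of variation of 20.8%. Among the 6 sham libraries fitted alone it was 10.1%, and that fit called 633 of 14775 genes. Of these, 231 were higher at 35 days (1.56%) and 402 were lower (2.72%). All 633 had the same direction in the 10-group fit. That fit estimates the same change from the same 6 libraries, so this agreement is not separate support. Below, "rose" and "fell" are used of genes called in the fit of the 6 sham libraries, whose log2 fold changes and adjusted p-values are given. Counts of list members called are out of those tested in that fit, while medians and overlap counts cover the members tested in the 10-group fit. The fold given for a single gene is also that of the 10-group fit, except for bounds given as "at least". Apart from Vwf, none of the 633 was called in the 10-group fit. Falls were larger than rises: 123 of the called genes were at least 2-fold lower and 7 were at least 2-fold higher. Groups did not overlap in CPM for 2073 genes that were higher (12.7%) and 2023 that were lower (12.4%) of the 16314.

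**Figure D1:**
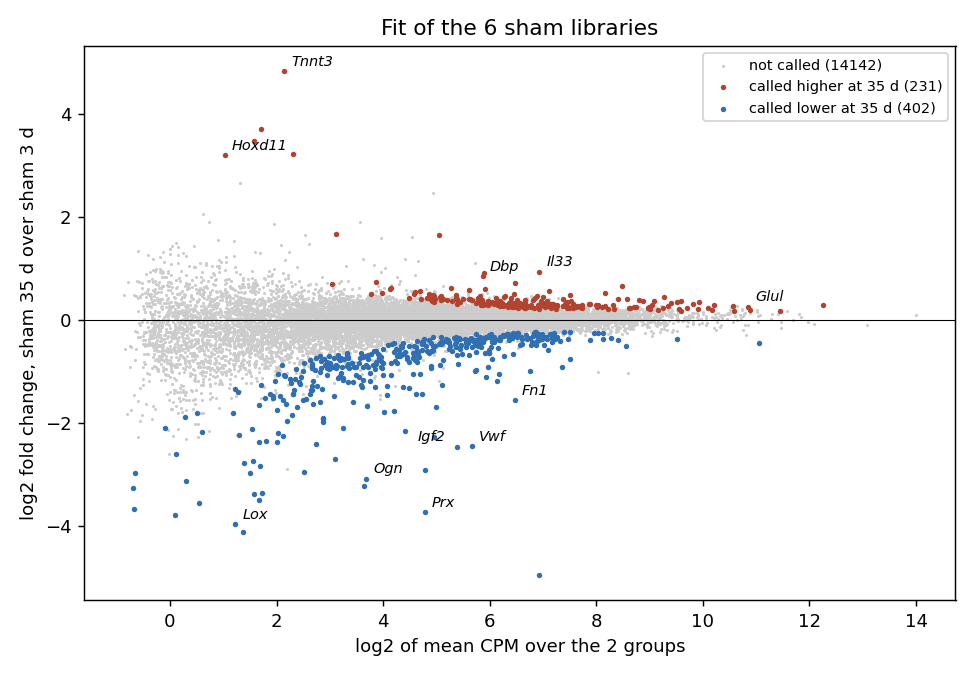
Each point is 1 of 14775 genes, with its log2 fold change (sham 35 days over sham 3 days, fit of the 6 sham libraries) on the vertical axis against the log2 of its mean CPM on the horizontal axis. Red points were called higher (231), blue points lower (402) and grey points were not called. Large falls outnumber large rises: 123 called genes were at least 2-fold lower and 7 at least 2-fold higher.

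Endothelial genes fell together, with 9 of 18 listed genes lower and 0 higher in the fit of the sham libraries. The list did not hold Vwf, and without 35-day replicate 2 it held 3 called genes. Its median log2 fold change was -0.48, against -0.0040 over all genes tested. The 9 were Abcb1a, Cdh5, Cldn5, Esam, Flt1, Kdr, Pecam1, Sox18 and Tek, which include adhesion, junction and receptor genes. Glucose, organic anion and lipid transporters of the barrier (Slc2a1, Slco1a4, Slco1c1 and Mfsd2a) were not called, while the transporter gene Abcb1a was among the 9.

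Flt1, a receptor for vascular endothelial growth factor, was at 56.3, 62.4 and 56.8 CPM at 35 days, against 93.2, 98.2 and 94.0 CPM at 3 days. Its log2 fold change was -0.70 ± 0.07, with an adjusted p of 0.000198 by edgeR. Kdr, the main signalling receptor for the same factor, was at 19.8, 17.3 and 13.5 CPM at 35 days, against 36.1, 35.9 and 32.9 CPM at 3 days. The 2 groups did not overlap for either receptor, and Kdr was 2.07-fold lower at 35 days. Vegfa, the ligand of both, also fell, with a log2 fold change of -0.49 ± 0.08 and an adjusted p of 0.00792 by edgeR. Cd93, an endothelial surface glycoprotein, was at 8.69, 8.82 and 9.27 CPM at 35 days, against 26.4, 22.6 and 25.0 CPM at 3 days. Tek, the angiopoietin receptor, was at 19.2, 15.8 and 15.0 CPM at 35 days, against 30.8, 25.4 and 20.7 CPM at 3 days, with an adjusted p of 0.0430 by edgeR and it was called in 1 of the 6 fits that left out a library.

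The sequences just upstream of 3 endothelial receptor genes that fell together are shown, since ETS-family factors are known regulators of endothelial genes. They are the 250 bases before the RefSeq start (GRCm38.p6): chr5:147726012-147726261, minus strand, chr5:75978456-75978705, minus strand, and chr4:94739039-94739288, plus strand. Capitals mark GGAA, the core that ETS factors bind, or its reverse complement TTCC. The window of Flt1 held 4 matches, that of Kdr 4 and that of Tek 2. Over 32851 windows of the same length, 93.4% held at least 1 match and the median was 3. Of the named endothelial genes, Vwf, Cd93 and Esam had no entry.
Flt1: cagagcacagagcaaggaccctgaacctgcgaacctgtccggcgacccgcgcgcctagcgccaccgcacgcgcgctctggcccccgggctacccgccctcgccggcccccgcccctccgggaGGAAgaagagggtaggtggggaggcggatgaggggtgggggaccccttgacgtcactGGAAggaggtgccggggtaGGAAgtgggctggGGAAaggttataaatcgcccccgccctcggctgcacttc
Kdr: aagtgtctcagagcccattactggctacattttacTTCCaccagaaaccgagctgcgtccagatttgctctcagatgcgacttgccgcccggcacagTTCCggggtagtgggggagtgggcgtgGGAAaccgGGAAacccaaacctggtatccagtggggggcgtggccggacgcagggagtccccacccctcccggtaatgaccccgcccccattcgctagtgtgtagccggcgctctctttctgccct
Tek: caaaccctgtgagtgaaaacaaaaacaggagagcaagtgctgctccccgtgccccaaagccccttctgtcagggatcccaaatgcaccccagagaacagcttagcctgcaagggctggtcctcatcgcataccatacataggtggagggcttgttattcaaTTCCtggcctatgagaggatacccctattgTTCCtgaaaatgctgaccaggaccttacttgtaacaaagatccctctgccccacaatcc

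Genes of mural cells, the pericytes and smooth muscle cells around vessels, fell as well, with 6 of 12 tested genes lower, 0 higher and a median log2 fold change of -0.69. Vtn, the matrix protein vitronectin made by pericytes, was at 38.3, 35.4 and 35.4 CPM at 35 days, against 88.2, 56.3 and 68.3 CPM at 3 days, a log2 fold change of -0.97 ± 0.14 with an adjusted p of 0.00392 by edgeR. Pdgfrb, the receptor by which endothelium recruits pericytes, was at 20.7, 15.8 and 18.2 CPM at 35 days, against 34.0, 26.3 and 27.9 CPM at 3 days. The smooth muscle genes Acta2, Tagln and Mylk and the potassium channel subunit gene Abcc9 completed the 6. Without 35-day replicate 2 the list held 1 called gene, Vtn being called without any of the 6 libraries in turn.

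Basement membrane genes had the highest share of falls among the lists, with 10 of 12 lower and 0 higher (median log2 fold change -0.88), and 11 of 12 did not overlap between groups. Hspg2, which encodes perlecan, was at 15.9, 15.3 and 14.1 CPM at 35 days, against 59.5, 43.4 and 43.1 CPM at 3 days, 3.22-fold lower with an adjusted p of 8.12e-05 by edgeR. Col4a1 was at 36.6, 40.9 and 39.0 CPM at 35 days, against 77.0, 74.8 and 98.2 CPM at 3 days. Its partner chain Col4a2 was at 62.6, 70.8 and 68.3 CPM at 35 days, against 106, 97.7 and 117 CPM at 3 days. The 2 collagen IV genes lie head to head on chromosome 8, at 11198423 to 11312826 on the minus strand and at 11312805 to 11449287 on the plus strand (GRCm38). The laminin genes Lama2, Lama4, Lama5, Lamb1, Lamb2 and Lamc1 and the nidogen gene Nid1 also fell, while Sparcl1, an astrocyte-rich member of the list, was higher without overlap and was not called. With 1 library left out, 7 to 10 of the 12 were called.

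**Figure D2:**
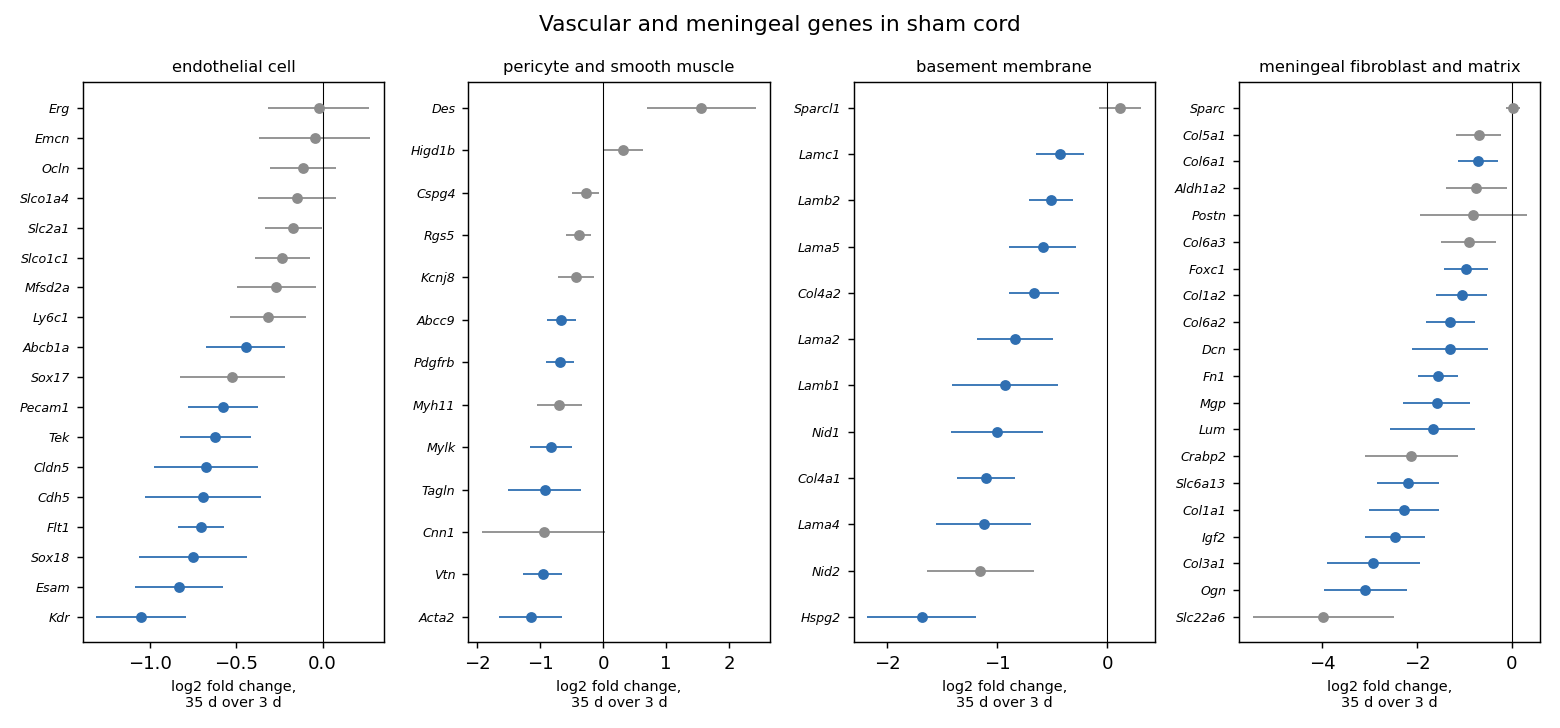
Each point is the log2 fold change (sham 35 days over sham 3 days, 10-group fit, horizontal axis) of 1 gene of 4 lists, with its standard error as a bar. Blue points were called lower in the fit of the 6 sham libraries and grey points were not called. Nearly all points lie left of 0, from Slc22a6 at -3.97 to Des at 1.56.

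Genes of meningeal fibroblasts and fibrillar matrix showed the largest median fall of the neural and vascular lists, with 13 of 19 lower, 0 higher, 17 of 20 without overlap and a median log2 fold change of -1.43. Igf2, insulin-like growth factor 2, which the meninges and choroid plexus make in the adult nervous system, was at 8.69, 14.9 and 15.0 CPM at 35 days, against 85.4, 62.4 and 64.2 CPM at 3 days. It was 5.49-fold lower, with a log2 fold change of -2.46 ± 0.18 and an adjusted p of 7.21e-05 by edgeR. Ogn, the small proteoglycan osteoglycin, was at 2.58, 2.97 and 2.54 CPM at 35 days, against 29.9, 23.2 and 15.8 CPM at 3 days, which made it 8.50-fold lower. Fn1, fibronectin, a matrix protein of plasma, vessels and wounds, was at 39.1, 38.1 and 57.7 CPM at 35 days, against 134, 124 and 140 CPM at 3 days. Slc6a13, a GABA and taurine transporter of meningeal cells, was at 1.33, 1.53 and 1.56 CPM at 35 days, against 7.46, 5.55 and 7.18 CPM at 3 days. These 4 genes were called without each of the 6 libraries in turn, while the list held 8 called genes without 35-day replicate 2.

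Genes outside the list were also among the largest falls. Lox, the enzyme that crosslinks collagen and elastin, averaged 0.273 ± 0.174 CPM at 35 days and 4.39 ± 2.91 CPM at 3 days (SD, n = 3 each), 15.7-fold lower. The microfibril genes Mfap5 and Mfap4 averaged 0.270 ± 0.114 and 0.587 ± 0.616 CPM at 35 days and 4.91 ± 1.88 and 6.00 ± 2.61 CPM at 3 days. Slc47a1, an organic cation exporter that was not called without 35-day replicate 1 or replicate 2, was at 0.0783, 0.0848 and 1.39 CPM at 35 days, against 6.82, 5.95 and 3.69 CPM at 3 days. Sparc, an abundant matrix gene of several cell types, overlapped between groups, with 1447, 1413 and 1404 CPM at 35 days and 1527, 1282 and 1372 CPM at 3 days, and it made up most of the meningeal list's summed level, which was 1597 to 1633 CPM at 35 days and 1747 to 2277 CPM at 3 days.

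**Figure D3:**
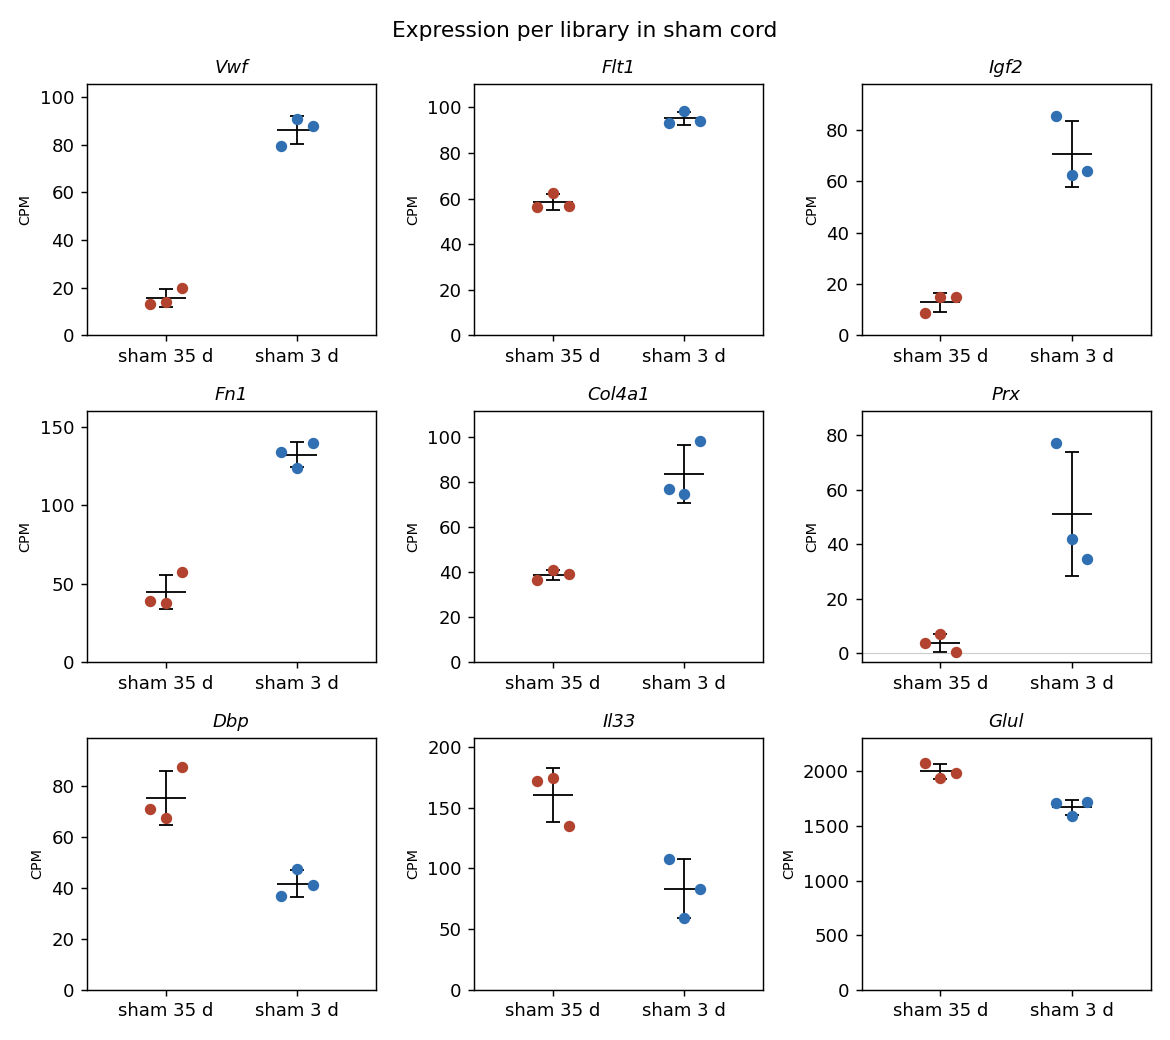
CPM of 9 genes in each library (points) of sham cord at 35 days (left, red) and at 3 days (right, blue), with the group mean and SD as black lines and an axis from 0. The groups do not overlap for any of the 9 genes, which were picked from called genes, and 630 of the 633 called genes do not overlap. Vwf, Flt1, Igf2, Fn1, Col4a1 and Prx are lower at 35 days, and Dbp, Il33 and Glul are higher.

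Peripheral myelin genes held some of the largest falls. Prx, periaxin of the Schwann cell membrane, was at 3.91, 7.12 and 0.492 CPM at 35 days, against 76.9, 41.7 and 34.6 CPM at 3 days. Every 3-day library was above every 35-day library, and the level was 13.3-fold lower at 35 days, with a log2 fold change of -3.74 ± 0.46 and an adjusted p of 0.00146 by edgeR. Dhh, the ligand that Schwann cells use to build nerve sheaths, averaged 0.220 ± 0.103 CPM at 35 days and 2.68 ± 1.14 CPM at 3 days (SD, n = 3 each). Of the list, 7 of 10 genes fell and 0 rose (median log2 fold change -1.29), among them Erbb3, Ncmap, Pmp2 and Pmp22. Without 35-day replicate 1 it held 4 called genes. Egr2, the factor that drives Schwann cell myelination, was not tested in the sham fit and averaged 0.159 ± 0.206 CPM at 35 days and 1.08 ± 0.303 CPM at 3 days.

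Mbp and Sox10, members of that list that oligodendrocytes also express, overlapped between groups. Mbp was at 18759, 16942 and 15089 CPM at 35 days and at 16054, 14245 and 17068 CPM at 3 days, and Sox10 was at 179.9, 159 and 148 CPM at 35 days and at 171, 167 and 164 CPM at 3 days. Markers of sensory ganglia did not differ by call, with 0 of 5 called and a summed level of 145 to 166 CPM at 35 days and 132 to 152 CPM at 3 days. Prx, Dhh and the summed meningeal genes were highest in 3-day replicate 1, where the summed meningeal level was 2277 CPM. Peripheral nerve, meninges and muscle surround the cord, and their part in the other differences was not tested.

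Of 17 tested phagocyte and macrophage genes, 5 fell and 0 rose (median log2 fold change -0.44), while the summed level of the list was 2714 ± 219 CPM at 35 days and 2441 ± 112 CPM at 3 days (SD, n = 3 each). The 5 were Cd163, Cybb, Lyve1, Lyz2 and Mrc1. Lyz2, lysozyme of myeloid cells, was at 15.6, 18.3 and 9.02 CPM at 35 days, against 41.1, 37.1 and 38.2 CPM at 3 days, 2.71-fold lower with an adjusted p of 0.00187 by edgeR. Mrc1, the mannose receptor of perivascular and meningeal macrophages, was at 0.470, 1.36 and 0.164 CPM at 35 days, against 6.32, 3.73 and 3.62 CPM at 3 days. Cd163, the haemoglobin scavenger receptor of the same cells, averaged 1.01 ± 0.246 CPM at 35 days and 3.53 ± 1.55 CPM at 3 days (SD, n = 3 each) and was called in 1 of the 6 fits that left out a library, the one without 3-day replicate 2. Without 35-day replicate 1, 1 of the 17 was called.

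Of 12 homeostatic microglia genes, 0 were called, 4 were higher without overlap and the median log2 fold change was 0.24. Tmem119, a microglia-specific membrane protein, was at 17.4, 16.7 and 17.1 CPM at 35 days and at 11.9, 12.9 and 15.7 CPM at 3 days, with an adjusted p of 0.171 by edgeR. Siglech averaged 12.4 ± 1.52 CPM at 35 days and 9.37 ± 0.800 CPM at 3 days.

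Serping1, the inhibitor of complement C1, was at 4.07, 3.22 and 3.44 CPM at 35 days, against 20.7, 9.60 and 15.7 CPM at 3 days. It was among the 2 of 12 complement genes called in the sham fit, both lower, and was called in all alternatives of that fit. Of 17 cytokine, chemokine and adhesion genes, 5 were high enough to be tested in the sham fit, and of these Cxcl12, Osmr and Vcam1 fell. Cxcl12, a chemokine of vessels and meninges, was at 42.5, 48.3 and 39.3 CPM at 35 days, against 88.4, 95.9 and 60.6 CPM at 3 days. Ccl2, which attracts monocytes, had 1 count in all at 35 days and 22 counts at 3 days, a 35-to-3-day ratio of 0.0511 (95% exact Poisson interval 0.00124 to 0.316, counting error only). Csf3r, the granulocyte colony-stimulating factor receptor, was the 1 neutrophil gene of 8 called, and the list summed to 13.3 to 58.4 CPM at 35 days and to 55.7 to 116 CPM at 3 days. Csf3r was called in 2 of the 6 fits that left out a library, and Osmr in 1. Of type I interferon genes, 0 of 16 were called by edgeR in the sham fit and 0 of 19 in the 10-group fit, where 0 had an unadjusted p below 0.05. The 8 tested T and NK cell genes had the same counts in the 10-group fit and were too low to be tested in the sham fit.

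Of 16 tested reactive astrocyte genes, 4 fell and 1 rose, with a median log2 fold change of -0.48. Steap4, a metal reductase that inflammation induces, was at 0, 0.254 and 0.0820 CPM at 35 days, against 0.781, 1.11 and 1.504 CPM at 3 days, and it was called in 1 of the 5 fits that left out a library and could test it. Cp, ceruloplasmin, the copper-carrying ferroxidase, was at 17.7, 20.0 and 15.7 CPM at 35 days, against 35.9, 25.1 and 27.5 CPM at 3 days. Vim, vimentin, and Osmr, the oncostatin M receptor, were the others that fell, and S100a10 was the 1 that rose. Without 35-day replicate 2, 0 of the 16 were called. Lcn2, lipocalin 2, overlapped between groups, with 3.99, 4.50 and 0.656 CPM at 35 days and 8.52, 4.44 and 11.8 CPM at 3 days.

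Of 14 homeostatic astrocyte genes, 3 rose and 0 fell, while the median log2 fold change was -0.0088. Without overlap, 3 were higher and 1 was lower. The list summed to 11852 to 12095 CPM at 35 days and to 11285 to 12039 CPM at 3 days. Glul, glutamine synthetase, was at 2073, 1941 and 1987 CPM at 35 days, against 1707, 1592 and 1718 CPM at 3 days. The log2 fold change was 0.26 ± 0.05, with an adjusted p of 0.0136 by edgeR. Aldoc, the astrocyte aldolase, averaged 1669.6 ± 47.8 CPM at 35 days and 1373 ± 68.3 CPM at 3 days, and S100b averaged 819 ± 97.3 CPM at 35 days and 640.5 ± 11.6 CPM at 3 days (SD, n = 3 each). Without 35-day replicate 1 or replicate 2, 0 of the 3 were called, and with Xist status as a covariate 1 was called, Aldoc. Il33, the alarmin that glia of the cord store in the nucleus, was at 172, 175 and 135 CPM at 35 days, against 108, 59.1 and 83.1 CPM at 3 days, a rise of 0.94 ± 0.17 on the log2 scale with an adjusted p of 0.0125 by edgeR that was not reached without 35-day replicate 1 or replicate 2.

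Of 16 genes of mature oligodendrocytes and central myelin, 2 fell and 0 rose, and the median log2 fold change was 0.03. The 2 were enzymes of myelin lipid synthesis. Ugt8a, which makes galactosylceramide, was at 323, 311 and 307 CPM at 35 days, against 441, 423 and 471 CPM at 3 days. Its log2 fold change was -0.50 ± 0.06, with an adjusted p of 0.000965 by edgeR. Fa2h, which hydroxylates the fatty acids of that lipid, was at 212, 189 and 213 CPM at 35 days, against 275, 249.9 and 275 CPM at 3 days. Gpr17, a receptor of committed precursors, averaged 49.5 ± 9.94 CPM at 35 days and 77.7 ± 3.01 CPM at 3 days, and Bcas1, of early myelinating cells, averaged 871 ± 61.2 CPM at 35 days and 670.0 ± 65.4 CPM at 3 days (SD, n = 3 each). Of 15 genes of precursors and newly formed oligodendrocytes, 1 fell (Gpr17) and 2 rose (Bcas1 and Olig1). The median log2 fold change of that list was -0.12, with 4 members lower and 2 higher without overlap. Neither rise was called with Xist status as a covariate.

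Sterol synthesis genes fell by smaller folds, with 7 of 18 lower, 0 higher and 11 of 19 lower without overlap (median log2 fold change -0.26). Lss, lanosterol synthase, was at 41.0, 43.5 and 42.7 CPM at 35 days, against 73.0, 61.0 and 61.0 CPM at 3 days, a log2 fold change of -0.62 ± 0.09 with an adjusted p of 0.00431 by edgeR. Sqle, squalene epoxidase, averaged 131 ± 2.38 CPM at 35 days and 169 ± 14.7 CPM at 3 days, and Stard4, a sterol carrier, averaged 34.6 ± 3.52 CPM at 35 days and 55.1 ± 6.64 CPM at 3 days (SD, n = 3 each). Hmgcs1 and Idi1, enzymes of early steps of the pathway, also fell. Without 35-day replicate 2, 1 of the 7 was called. In the fatty acid list, 5 of 16 fell, among them the elongase genes Elovl1, Elovl6 and Elovl7, and 1 was called without 35-day replicate 2.

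Pan-neuronal genes moved little. Of 16 pan-neuronal genes, 14 were higher without overlap at 35 days and 0 were lower, with a median log2 fold change of 0.18. The 1 called was Snap25, of the synaptic release machinery, at 0.17 ± 0.04 on the log2 scale with an adjusted p of 0.0267 by edgeR. Snap25 was not called with Xist status as a covariate. Tubb3, neuronal tubulin, was at 602, 626 and 592 CPM at 35 days, against 538, 449.7 and 531 CPM at 3 days, with an adjusted p of 0.0583 by edgeR. Of 15 glutamatergic genes, 0 rose and 1 fell, Slc17a7. Its log2 fold change was -1.48 ± 0.34, with an adjusted p of 0.0341 by edgeR, and it was called in 2 of the 6 fits that left out a library. Of 17 GABAergic and glycinergic genes, 1 rose and 1 fell. These were Gabra5 and Gabra2, subunits of the GABA-A receptor, which went in opposite directions. Gabra2 averaged 42.8 ± 4.86 CPM at 35 days and 97.6 ± 33.2 CPM at 3 days, and Gabra5 averaged 79.0 ± 6.64 CPM at 35 days and 59.1 ± 3.59 CPM at 3 days (SD, n = 3 each). Camk2n1, an inhibitor of the calcium kinase CaMKII, rose by 0.38 ± 0.06 on the log2 scale, with an adjusted p of 0.00567 by edgeR.

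Cytosolic ribosomal protein genes had 10 of 23 members higher and 0 lower (median log2 fold change 0.25), and oxidative phosphorylation genes had 3 of 20 higher and 0 lower (0.16). Each list had 14 members that were higher without overlap. Ribosomal protein genes have many processed pseudogenes with which they can share reads, so their counts are uncertain. Rpl3 was at 525, 385 and 399 CPM at 35 days, against 343, 238 and 246 CPM at 3 days, and Rpl14 averaged 208 ± 11.8 CPM at 35 days and 169 ± 7.26 CPM at 3 days (SD, n = 3 each). Gas5, a short-lived RNA that hosts small nucleolar RNAs, was at 85.5, 92.2 and 53.7 CPM at 35 days, against 50.3, 44.4 and 29.0 CPM at 3 days, and was not called without 3-day replicate 3, 35-day replicate 1 or 35-day replicate 2. With Xist status as a covariate, 0 of these ribosomal protein genes and 0 of the oxidative phosphorylation genes were called, and the same was found without 3-day replicate 2, 35-day replicate 1 or 35-day replicate 2.

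The direction of change moved with gene length. By quartile of exonic length, the median log2 fold change was 0.09 for the shortest genes (up to 2041 bases), 0.04 and -0.01 for the middle quartiles, and -0.09 for the longest (from 4906 bases). In the sham fit, 111 of 3174 genes rose and 40 fell in the shortest quartile, while 14 of 3689 rose and 209 fell in the longest. Median exonic length was 921.5 bases for the ribosomal protein genes and 1216.5 bases for the oxidative phosphorylation genes, against 3249.5 bases over all genes tested. It was 6270.5 bases for the basement membrane genes, 4041.5 for the meningeal genes and 3186 for the Schwann cell genes. The part of length in the calls was not tested.

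**Figure D4:**
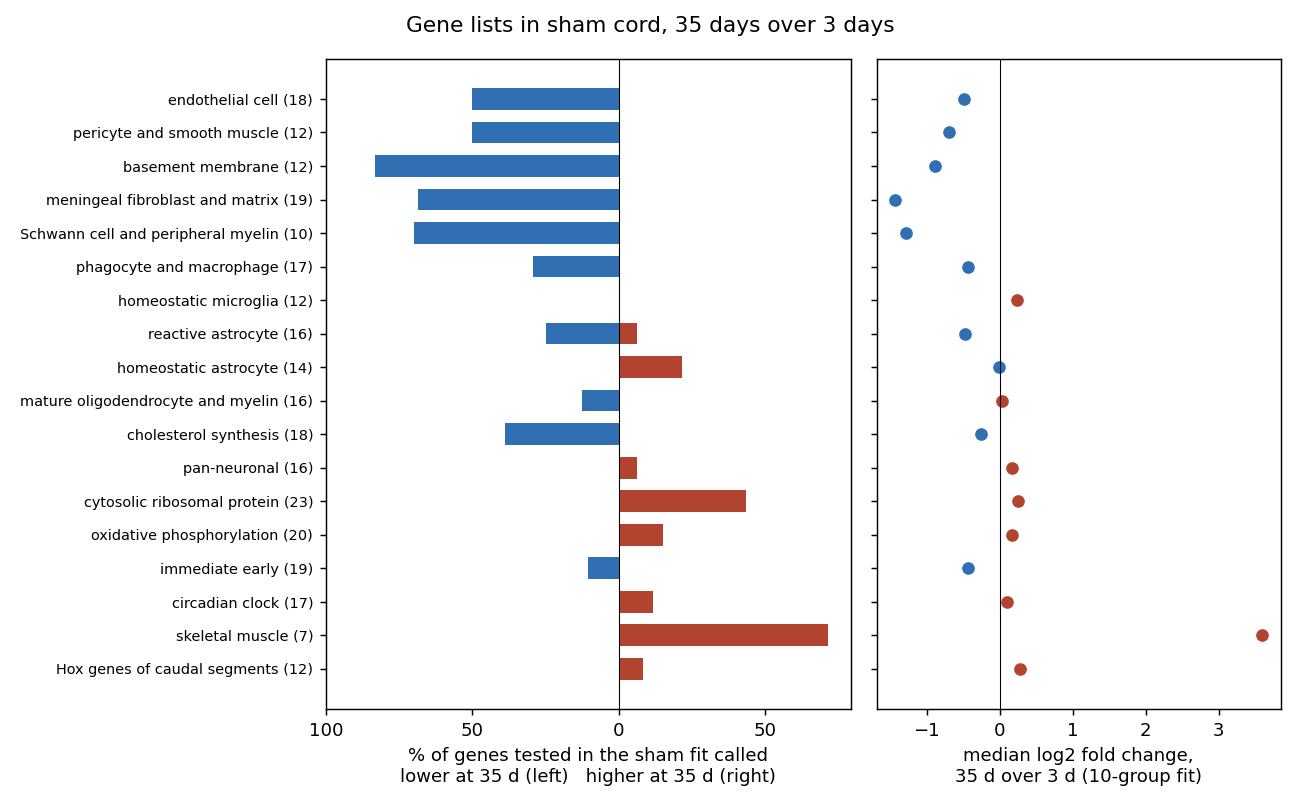
Left, the percentage of the genes of each of 18 lists tested in the fit of the 6 sham libraries (number in brackets) called lower at 35 days (blue, to the left) or higher (red, to the right) in that fit. Right, the median log2 fold change of each list (sham 35 days over sham 3 days, 10-group fit). Basement membrane, meningeal and Schwann cell lists have the longest bars to the left, with 10 of 12, 13 of 19 and 7 of 10 genes called lower.

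Clock output genes rose. Dbp, a transcription factor that the clock drives with a strong daily rhythm, was at 71.0, 67.5 and 87.4 CPM at 35 days, against 36.8, 47.3 and 41.0 CPM at 3 days. It was 1.81-fold higher, with a log2 fold change of 0.85 ± 0.11 and an adjusted p of 0.00187 by edgeR. Nr1d1, the repressor REV-ERB alpha, was at 153, 155 and 162 CPM at 35 days, against 128, 129 and 123 CPM at 3 days. These were the 2 of 17 clock genes called. Nfil3, which opposes Dbp at the same sites, was at 6.18, 6.70 and 6.89 CPM at 35 days and at 8.74, 11.5 and 9.02 CPM at 3 days, with an adjusted p of 0.0884 by edgeR. The labels do not state the time of day at collection.

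Of 19 tested immediate early genes, 2 fell and 0 rose, and 10 of 20 were lower without overlap (median log2 fold change -0.44). Fosl2, an AP-1 subunit, was at 6.65, 10.4 and 10.3 CPM at 35 days, against 13.5, 17.9 and 20.2 CPM at 3 days. Klf4, a zinc finger factor of endothelium and other cells, averaged 5.32 ± 0.828 CPM at 35 days and 10.1 ± 0.774 CPM at 3 days (SD, n = 3 each). Without 3-day replicate 3 or 35-day replicate 1, 0 of the 19 were called, and Fosl2 was also not called without 3-day replicate 2 or 35-day replicate 2.

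Further genes rose without belonging to the lists above. Ndrg2, an astrocyte-rich gene of the NDRG family, averaged 1096 ± 37.4 CPM at 35 days and 854 ± 55.8 CPM at 3 days (SD, n = 3 each). Adipor2, an adiponectin receptor, averaged 166 ± 26.2 CPM at 35 days and 112 ± 4.12 CPM at 3 days, and Nme7 averaged 148 ± 4.14 CPM at 35 days and 109 ± 5.82 CPM at 3 days. Cd59a, which blocks the complement membrane attack complex and has a close copy in Cd59b, was at 76.5, 45.2 and 29.0 CPM at 35 days, against 25.5, 12.7 and 9.84 CPM at 3 days. The groups did not overlap, though the lowest 35-day and highest 3-day libraries were close. Alox8, a lipoxygenase, averaged 13.3 ± 2.20 CPM at 35 days and 4.13 ± 3.11 CPM at 3 days. Palm3 and the splicing factor gene Hnrnpa3 rose by 0.73 ± 0.16 and 0.72 ± 0.15 on the log2 scale. Without 3-day replicate 3, 35-day replicate 1 or 35-day replicate 2, in turn, none of Cd59a, Alox8, Palm3 and Hnrnpa3 was called. Cd59a was also not called without 3-day replicate 2, Alox8 without 35-day replicate 3 and Ndrg2 without 35-day replicate 2.

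The largest rises were genes of skeletal muscle, which is not a cord cell type. Tnnt3, a troponin of fast fibres, was at 16.8, 6.87 and 1.89 CPM at 35 days, against 0, 0.238 and 0.615 CPM at 3 days. Acta1, skeletal actin, was at 18.1, 6.70 and 2.21 CPM at 35 days, against 0.923, 1.51 and 0.479 CPM at 3 days. Tnnc2 had 146, 28 and 5 counts at 35 days and 0 counts in all 3 libraries at 3 days, at least 67.0-fold higher at 35 days against 3 counts over the 3-day group. Replicate 1 was highest and replicate 3 lowest at 35 days for each of these genes. Of the 12 listed genes, 10 were higher without overlap, and of the 7 tested in the sham fit 5 were called higher: Acta1, Atp2a1, Ckm, Pvalb and Tnnt3. The list summed to 114 to 240 CPM at 35 days and to 95.05 to 98.3 CPM at 3 days, of which Pvalb, also a gene of neurons, gave 103 to 122 CPM at 35 days and 88.4 to 92.3 CPM at 3 days. Without 35-day replicate 1, 0 of the list were called, and with Xist status as a covariate 1 was called, Tnnt3.

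Hox genes keep the positional code of the cord, and 1 of the caudal end rose. Hoxd11, normally restricted to lumbar and sacral levels, was at 2.19, 3.22 and 5.66 CPM at 35 days, against 0.355, 0.555 and 0.273 CPM at 3 days. Its log2 fold change was 3.21 ± 0.49, with an adjusted p of 0.00623 by edgeR, and it was called without each of the 6 libraries in turn. It was the 1 of 12 caudal Hox genes called, and 7 of the 13 were higher without overlap. Hoxd10 was at 16.9, 16.8 and 27.8 CPM at 35 days and at 6.39, 14.4 and 11.6 CPM at 3 days, and Hoxc10 was at 75.0, 71.6 and 73.5 CPM at 35 days and at 50.9, 60.5 and 64.9 CPM at 3 days. Of 13 Hox genes of rostral segments, 0 were called and 0 were without overlap, and their summed level was 254 to 260 CPM at 35 days and 249 to 257 CPM at 3 days. The summed level of caudal Hox genes was 799 to 847 CPM at 35 days and 649 to 733 CPM at 3 days, and the part of segment level in the other changes was not tested.

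Time courses in sham and injured control cord differed for 59 of 16314 genes (0.362%), tested as the sham change minus the injured control change in the 10-group fit. The difference was positive for 30 genes and negative for 29. The sham libraries enter both this difference and the comparison above, and 12 of the 59 were among the 633. Vwf was not among them: its time change was -2.45 in sham cord and -2.09 in injured control cord on the log2 scale, a difference of -0.36 ± 0.51 with an adjusted p of 0.904 by edgeR. Its level was 58.8 ± 27.7 CPM (SD, n = 4) in injured control cord at 35 days and 250.2 ± 79.0 CPM (SD, n = 3) at 3 days, above the sham level at both times.

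The 4 named genes with a positive difference are known for cell division, and 2 of the 21 listed mitosis genes were called, both with a positive difference. Ckap2, a spindle protein, was at 2.74, 2.80 and 3.03 CPM in sham cord at 35 days and at 0.995, 1.03 and 1.85 CPM at 3 days. In injured control cord it was at 3.47 to 5.35 CPM at 35 days and at 16.5 to 22.8 CPM at 3 days. The difference of time changes was 3.38 ± 0.58 on the log2 scale, with an adjusted p of 0.00820 by edgeR. Pole, a DNA polymerase subunit, averaged 4.91 ± 0.686 CPM in sham cord at 35 days and 3.04 ± 0.290 CPM at 3 days (SD, n = 3 each), and in injured control cord it ranged from 3.50 to 5.06 CPM at 35 days and from 10.3 to 13.3 CPM at 3 days. Cenpm and Racgap1, of the centromere and the dividing cell's midzone, differed by 2.16 ± 0.46 and 1.41 ± 0.29. They were called in 5 and 4 of the 13 fits that left out a library, and neither with Xist status as a covariate. Neither was called without replicate 4 of the injured control at 35 days. Without that library Ckap2 and Pole kept adjusted p-values of 0.0120 by edgeR.

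The named genes with a negative difference were lower at 35 than at 3 days in sham cord and higher at 35 than at 3 days in injured control cord. Igf2, at 8.69 to 15.0 CPM in sham cord at 35 days and 62.4 to 85.4 CPM at 3 days, was at 61.9, 59.1, 95.03 and 405 CPM in injured control cord at 35 days and at 70.2, 21.6 and 35.8 CPM at 3 days. The difference was -4.33 ± 0.86, with an adjusted p of 0.0230 by edgeR, and -3.22 with 0.0360 without replicate 4 of the injured control at 35 days, which carried both Xist and Ddx3y. Slc47a1 was at 1.91, 21.1, 22.6 and 81.9 CPM in injured control cord at 35 days and at no more than 5.13 CPM at 3 days, and the difference was -7.10 ± 1.42, or -6.03 without that library. Clec3b, the plasminogen-binding protein tetranectin, differed by -4.15 ± 0.93 and was not called without that library (adjusted p 0.0989 by edgeR). Igf2 was the 1 called gene of the 20 in the meningeal list. Dapl1, which had 0 counts in sham cord at 35 days and 41 counts at 3 days, was at least 12.2-fold lower at 35 days against 3 counts over the group. With 1 library left out, Igf2 was called in 7 of 13 interaction fits, Slc47a1 in 8, Clec3b in 3 and Dapl1 in 5. Clec3b and Dapl1 were also not called in the interaction with Xist status as a covariate. In injured cord given Gsx1 or Nkx6.1, which were not tested here, the fitted time changes of Igf2 were 1.19 and 1.37, and those of Ckap2 were -2.85 and -2.91.

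**Figure D5:**
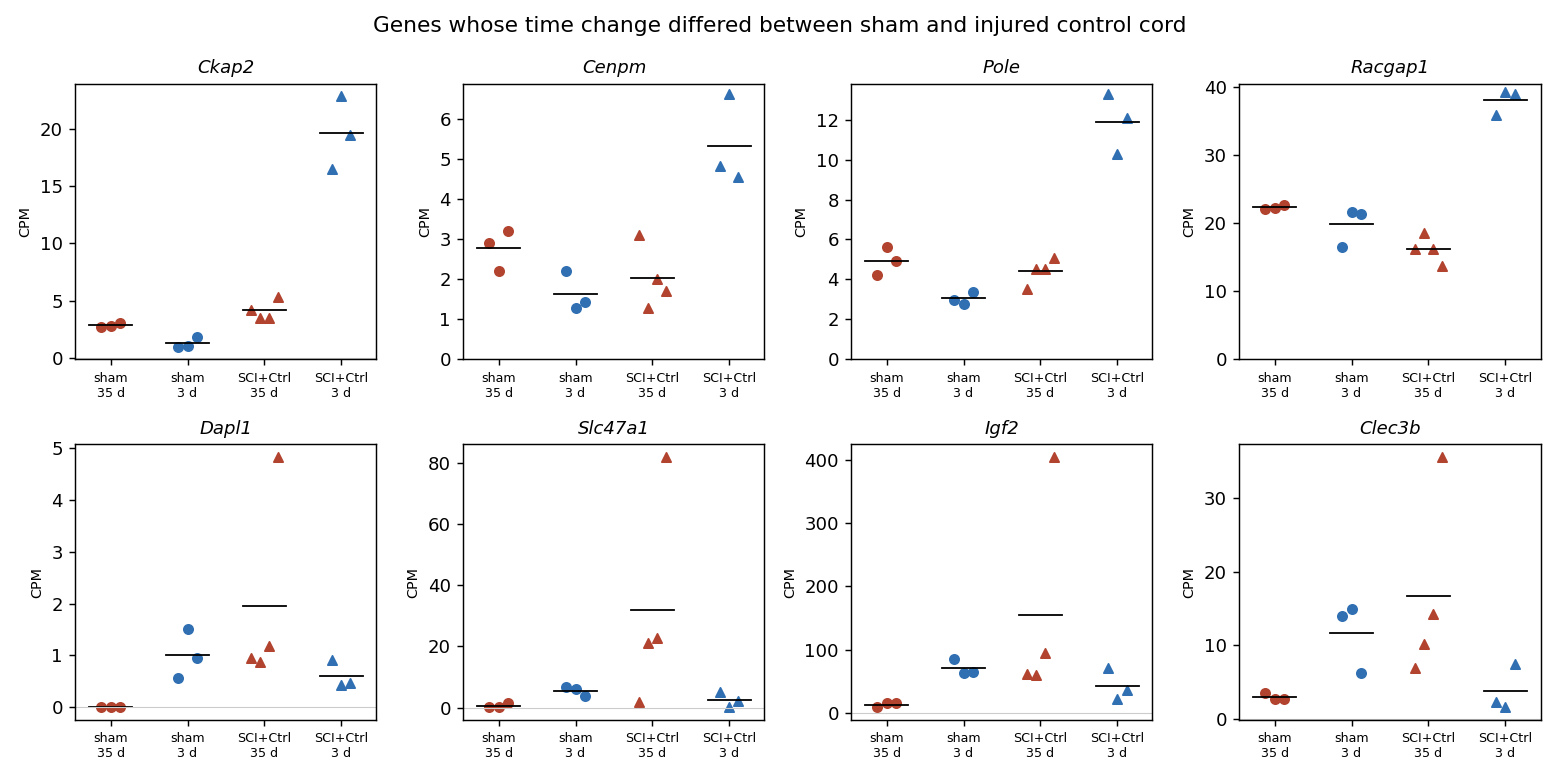
CPM per library (points) and group mean (black line) of 8 genes in sham cord at 35 and 3 days (circles) and in injured control cord at 35 and 3 days (triangles), with 35 days in red and 3 days in blue. Ckap2, Cenpm, Pole and Racgap1 are highest in injured control cord at 3 days, while Slc47a1, Igf2, Clec3b and Dapl1 have their lowest mean in sham cord at 35 days and are highest in 1 injured control library at 35 days.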

How the data were processed

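Bulk RNA of mouse spinal cord was measured in 32 libraries of 10 groups. The values are raw read counts per gene symbol, deposited by the authors as 1 table of 23420 genes. The submitters' processing notes name HISAT2, SAMtools, HTSeq and DESeq2 and the builds mm10 and GRCm38; versions, annotation and the strand setting are not given, so reads of overlapping or antisense genes cannot be told apart.

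Counts were scaled by TMM and tested with edgeR 4.0.16 in R 4.3.3 (quasi-likelihood, default expression filter with a minimum count of 10, Benjamini-Hochberg adjusted p below 0.05), with 16314 genes tested and all 10 groups in 1 model. The time changes of sham and injured control cord were compared by an interaction term. Standard errors of log2 fold changes were derived from the test, as the absolute log2 fold change over the square root of its F statistic. CPM used each library's total over the tested genes multiplied by its TMM factor, and intervals cover counting error only. The scripts were tested on simulated data. The fit of the 6 sham libraries is used for most values in the text, a choice made after its calls were seen, as were its own alternatives. The alternatives were other scalings, filters and tools (DESeq2 1.42.0, limma 3.58.1), a replicate block, covariates and libraries left out. Same-numbered replicates did not deviate together and were not treated as pairs.

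Named genes were the 12 largest changes and 6 smallest p in each direction among called genes at 1 CPM or more without overlap, up to 4 members of each list, and the 4 largest interactions in each direction. Applying that rule to the sham fit was added after values were seen, and other called list members, Serping1 in the interaction, and Sparc, Sparcl1, Mbp, Sox10, Egr2, Lcn2, Hoxd10, Hoxc10, Tnnc2 and Ccl2 were also named after values were seen. Members and lists were chosen with earlier results of these data known. Gene lengths are exonic lengths of the GRCm38 annotation, matched by symbol for 93.6% of tested genes, and promoter sequences are from RefSeq. Some genes that the rule names are not reported here.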

Additional observations from a re-analysis of the deposited data

Results flagged for a closer look

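Time changes that differed between sham and injured control cord, by the interaction term of the 10-group fit, are given as the sham log2 change from 3 to 35 days minus the injured control change. The differences were 3.38 for Ckap2, 2.16 for Cenpm, 2.12 for Pole and 1.41 for Racgap1. They were -8.60 for Dapl1, -7.10 for Slc47a1, -4.33 for Igf2, -4.15 for Clec3b and -3.31 for Serping1. The fitted value of Dapl1 depends on the prior count, since it had 0 counts in sham cord at 35 days.

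Replicate 4 of the injured control at 35 days stood apart from the other 3 libraries of its group by the Dixon criterion for 3 of these genes, a criterion that chance meets in about 1 of 20 groups. It held 405 CPM of Igf2, where the others held 59.1 to 95.03 CPM, 187 CPM of Serping1 where the others held 56.5 to 71.3 CPM, and 4.83 CPM of Dapl1 where the others held 0.877 to 1.18 CPM. Without it, 45 genes were called in the interaction, with Igf2 at -3.22 and Serping1 at -2.77. This library carried both Xist (676 CPM) and Ddx3y (32.1 CPM), and their part in these values was not tested.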

How the results depend on the processing

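In the 10-group fit, sham cord at 35 against 3 days gave 1 called gene. The count was 633 with only the sham libraries, 41 with DESeq2, 0 with limma voom (831 at an unadjusted p below 0.05), 0 in libraries low in Xist, where the 3-day sham arm is 1 library (replicate 3) assumed to vary like the other groups, 3 without libraries high in both Xist and Ddx3y and 5 after adjustment for H2-Bl and Rpl29, 2 genes whose levels varied within groups. Leaving out 1 library gave 0 to 4. Other scalings and filters, the replicate block and the Xist covariate left it at 1. Same-numbered replicates correlated at 0.0421, -0.0661 and -0.0502 in their deviations from the group means.

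The fit of the 6 sham libraries, whose alternatives were chosen after seeing the data, gave 633 calls. With Xist status as a covariate it gave 267 (52 higher and 215 lower), in low-Xist libraries 1126, a fit of 2 libraries at 35 days and 1 at 3 days whose spread comes from a single pair, with the replicate block 555, and with 1 library left out 94 to 724. The lowest came without 35-day replicate 2, followed by 141 without 35-day replicate 1, 262 without 3-day replicate 3 and 351 without 3-day replicate 2. Of 78 named genes called there, 30 were called in all 14 alternatives and 78 kept their direction.

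The interaction gave 59. It was 32 with only the compared groups, 230 with DESeq2, 19 with limma voom, 29 with the replicate block, 28 with the Xist covariate, 1 in low-Xist libraries (again with 1 sham library at 3 days), 10 without libraries high in both markers, 169 after adjustment for those 2 genes, and 12 to 99 with 1 library left out. The causes were not tested. Among the named genes, in the alternatives run for them, no direction reversed. With 3 libraries a group, low genes such as Ccl2 or Dapl1 rest on few counts.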

Other observations

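Matrix of the central nervous system and genes of progenitor cells, in lists not described above, also held calls in the fit of the sham libraries. Over all genes tested in that fit, 1.56% were called higher and 2.72% lower. Tnc, tenascin C, fell by 0.90 ± 0.17 (SE) on the log2 scale, and Tnr, tenascin R of perineuronal nets, averaged 45.4 ± 3.92 CPM at 35 days and 64.0 ± 4.82 CPM at 3 days (SD, n = 3 each). They were the 2 of 16 proteoglycan and tenascin genes called. Nes, nestin, averaged 17.9 ± 2.95 CPM at 35 days and 30.5 ± 2.28 CPM at 3 days, and Prom1 averaged 13.7 ± 1.24 CPM at 35 days and 23.8 ± 4.16 CPM at 3 days. With Id4, which rose, they were the 3 of 12 neural stem and progenitor genes called. Of mitosis genes, 0 of 16 were called by edgeR in the sham fit and 0 of 21 in the 10-group fit, where 1 had an unadjusted p below 0.05.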
